A study of Sus scrofa with 6 samples.

Results

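The activity-induced immediate early genes FOS, FOSB, JUNB, EGR1, EGR2, EGR3, EGR4, ARC, NPAS4 and NR4A1 were followed in prefrontal cortex RNA of 6 pigs (Sus scrofa) aged 3 months. They were chosen by name from a list of 10 symbols. Of these, 9 were among the 17201 genes of the deposited count tables and all 9 passed the filter on low counts; NR4A1 is not analysed here. The animals labelled VPA (391, 392 and 393) had been exposed to valproic acid at 75 mg/kg in early gestation, and the controls (401, 402 and 408) had received no treatment. This antiepileptic drug blocks histone deacetylases, and the series presents the exposed pigs as a model of autism. No genetic change is named for either group, so all animals differ by label only in the exposure. Breed, litter, sex, the state of the animals before death and the time until the tissue was preserved are not named in the labels.

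Immediate early genes are transcribed within minutes of synaptic input, without new protein synthesis, when calcium and kinase signals reach the transcription factors CREB, SRF and MEF2 already bound at their promoters. Most encode transcription factors. FOS, FOSB and JUNB proteins form the dimeric AP-1 factor, the EGR proteins are zinc finger factors, and NPAS4 is a neuron-restricted factor of the bHLH-PAS family that is induced by calcium influx. ARC instead acts at the synapse, where it promotes the endocytosis of AMPA receptors. Their RNA is short-lived, so that its level in a tissue sample reflects recent activity of the cells.

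Total counts ran from 16285517 to 17989032 per library, so that 1 CPM, a count scaled to the library total, stood for 16 to 18 reads. Markers of cortical excitatory neurons were well expressed in all libraries, with SLC17A7, the vesicular glutamate transporter gene, at 1012 to 1161 CPM. VPA 393 stood apart in markers of striatal projection neurons, a cell type of a neighbouring region, with a summed level over 14 genes of 684 CPM against 230 to 282 in the other libraries. The Y-linked gene EIF1AY had 0 counts in VPA 392, 2 in control 401 and 450 to 548 in the other libraries. In bulk tissue, fewer cells of a type and less RNA per cell cannot be told apart. The labels name separate animals, and the p-values below set the difference between groups against the spread between animals of a group. Litters are not named, so whether animals of a group were littermates is not known.

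No immediate early gene passed the test between VPA and control cortex. In edgeR's quasi-likelihood test, 0 of 9 members had an adjusted p (Benjamini-Hochberg over all genes tested) under 0.05, where 52 of 14373 genes tested did (0.362%). At an unadjusted p under 0.05 there was 1 member, EGR2, against 16.1% of all genes tested. DESeq2, limma-voom and limma on log2 FPKM likewise called 0 of the 9. Over all genes DESeq2 called 435, limma-voom 30 and limma on log2(FPKM + 1) 2. With so few calls, the 0 of 9 from limma on log2 FPKM says little about the members. The count of 52 over all genes was 0 without VPA 391 and without VPA 392 (1897 and 1719 genes at an unadjusted p under 0.05). It was 1 without VPA 393, 66 without control 401, 5 without control 402 and 2 without control 408. The members' log2 fold changes (VPA minus control) had a median of 0.22, with 7 of 9 positive, beside a median of 0.00 and 50.5% positive over all genes tested. Without VPA 391 the median was -0.04, with 2 of 9 positive.

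**Figure D1:**
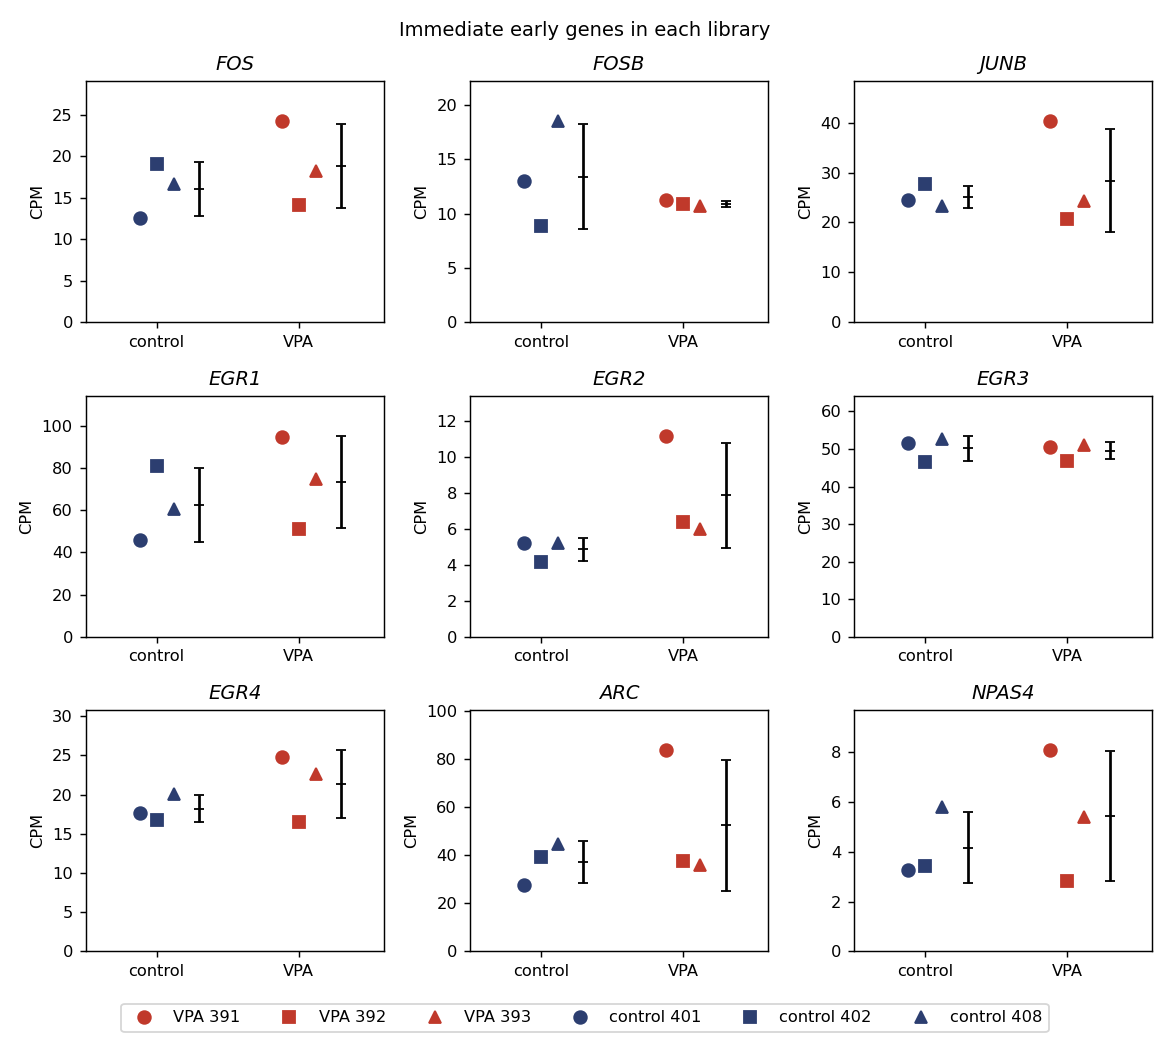
Each panel plots the CPM of 1 gene (vertical axis, from 0) in the 3 control (blue) and 3 VPA (red) libraries, with the symbol marking the animal and the bar beside each group its mean and SD (n = 3). VPA 391 is the highest point in 7 of the 9 panels, while EGR3 lies between 46.4 and 52.6 CPM in all 6 libraries.

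Among the AP-1 genes, FOS and JUNB were highest in the same VPA animal and FOSB in a control. FOS, the prototype of the family and a standard marker of activated neurons, had 24.2, 14.1 and 18.2 CPM in VPA 391, 392 and 393 and 12.5, 19.0 and 16.6 CPM in controls 401, 402 and 408. VPA 391 was high and control 401 low, and the groups overlapped. The means were 18.8 ± 5.05 CPM in VPA and 16 ± 3.27 CPM in controls (SD, n = 3 each; log2 fold change 0.22 ± 0.20 SE, edgeR adjusted p = 0.63). The log2 fold change was -0.01 without VPA 391, 0.06 without control 401, 0.35 without control 402 and 0.39 without VPA 392. JUNB, which encodes a dimer partner of FOS and FOSB, had 40.3, 20.7 and 24.3 CPM in the VPA animals and 24.4, 27.7 and 23.3 CPM in the controls, in the same order of animals. VPA 391 stood 1.45 times above the next library, and VPA 392 and 393 lay below or among the controls. The log2 fold change was 0.17 ± 0.21 (adjusted p = 0.75) and became -0.18 ± 0.12 without VPA 391 and 0.35 without VPA 392.

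FOSB, whose truncated splice form accumulates with repeated stimulation, showed another order. It had 11.2, 10.9 and 10.7 CPM in VPA 391, 392 and 393 and 13, 8.84 and 18.5 CPM in controls 401, 402 and 408. The VPA values lay inside the range of the controls. They varied by 2.59% (coefficient of variation), which is less than the 7.34% that counting error alone gives at these depths, while the controls varied by 36.1%. The log2 fold change was -0.31 ± 0.21 (adjusted p = 0.52), -0.01 without control 408 and -0.54 without control 402. The tables hold 1 value per gene, so the full-length and truncated forms were not separated. The ratio of FOSB to FOS counts was 0.465 in VPA 391, 0.466 in control 402, 0.587 in VPA 393 and 0.774 in VPA 392, and it was 1.04 in control 401 and 1.11 in control 408. The 2 lowest ratios were thus in a VPA and a control animal, and so nearly equal.

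The 4 EGR genes ranged from the member with the largest log2 fold change to the member with the smallest in size. EGR1 (also known as Zif268), an activity-induced factor tied to the stabilisation of synaptic change, had 94.6, 51.1 and 74.5 CPM in VPA 391, 392 and 393 and 45.9, 80.7 and 60.4 CPM in controls 401, 402 and 408. The groups overlapped over most of their range, and the lowest libraries were control 401 and VPA 392. The means were 73.4 ± 21.8 and 62.3 ± 17.5 CPM (log2 fold change 0.23 ± 0.22, adjusted p = 0.67). As for FOS, leaving out VPA 391 (-0.01) or control 401 (0.04) lowered it and leaving out VPA 392 (0.43) or control 402 (0.45) raised it. EGR1 and FOS were the closest pair of members, with a root-mean-square difference of 0.0908 between their centred log2 CPM over the 6 libraries.

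EGR2 (Krox-20), which is also needed for myelination by Schwann cells, was the member whose groups did not overlap, as in 21.2% of all genes tested. It had 11.2, 6.39 and 6 CPM in VPA 391, 392 and 393 and 5.23, 4.15 and 5.23 CPM in controls 401, 402 and 408. All VPA values were above all controls, by a wide margin only in VPA 391. The means were 7.88 ± 2.92 and 4.87 ± 0.622 CPM, and the log2 fold change was 0.68 ± 0.25 (unadjusted p = 0.019, adjusted p = 0.21). Without VPA 391 it was 0.32 ± 0.19 (adjusted p = 0.53). Across 18 alternative analyses the log2 fold change of EGR2 ran from 0.31 to 0.85 and the adjusted p from 0.14 to 0.53. EGR2 rested on 70 to 188 reads per library.

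EGR3, which in neurons is induced together with EGR1, was the steadiest member. It had 50.5, 46.9 and 51.1 CPM in VPA 391, 392 and 393 and 51.6, 46.4 and 52.6 CPM in controls 401, 402 and 408. The groups overlapped throughout, and VPA 391 was not high. The log2 fold change was -0.03 ± 0.074 (adjusted p = 0.86), and 0.00 without VPA 392 or without control 408. Its 95% interval ran from -0.20 to 0.13, a factor of 0.873 to 1.09, which was the narrowest of the 9. The variation was 4.56% in VPA and 6.56% in controls, where counting error alone gives 3.46% and 3.38%. EGR4 lay between its relatives, with 24.8, 16.5 and 22.6 CPM in the VPA animals and 17.6, 16.8 and 20.1 CPM in the controls. VPA 391 and 393 were the highest libraries and VPA 392 the lowest. The log2 fold change of EGR4 was 0.22 ± 0.14 (adjusted p = 0.50), 0.08 without VPA 391 and 0.37 without VPA 392. The ratio of EGR1 to EGR3 counts was 1.88 in VPA 391, 1.74 in control 402 and 1.46 in VPA 393, and it was 0.889 in control 401, 1.09 in VPA 392 and 1.15 in control 408.

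ARC and NPAS4 had the largest spread between animals. ARC had 83.5 CPM in VPA 391, 37.5 in VPA 392 and 35.9 in VPA 393, and 27.5, 39.1 and 44.4 CPM in controls 401, 402 and 408. VPA 391 was 1.88 times the next library, control 408, and 2.28 times the mean of the other VPA animals, which lay within the range of the controls. The means were 52.3 ± 27.1 CPM in VPA and 37.0 ± 8.68 CPM in controls (log2 fold change 0.49 ± 0.30, 95% interval -0.17 to 1.14, adjusted p = 0.45). Without VPA 391 the log2 fold change of ARC was -0.04 ± 0.17, and without control 401 it was 0.30. NPAS4, which controls the number of inhibitory synapses on excitatory neurons, had 8.07, 2.82 and 5.39 CPM in VPA 391, 392 and 393 and 3.28, 3.44 and 5.80 CPM in controls 401, 402 and 408. Within the VPA group alone it covered the whole range seen, by a factor of 2.86. Its log2 fold change was 0.37 ± 0.35 (95% interval -0.41 to 1.14, adjusted p = 0.65). It was -0.04 without VPA 391, 0.21 without control 401, 0.24 without control 402, 0.67 without VPA 392 and 0.68 without control 408. NPAS4 had the fewest reads, with 46 to 135 per library, for which counting error alone gives a variation of 11.5% in VPA and 12.1% in controls, against 48.3% and 33.8% measured.

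**Figure D2:**
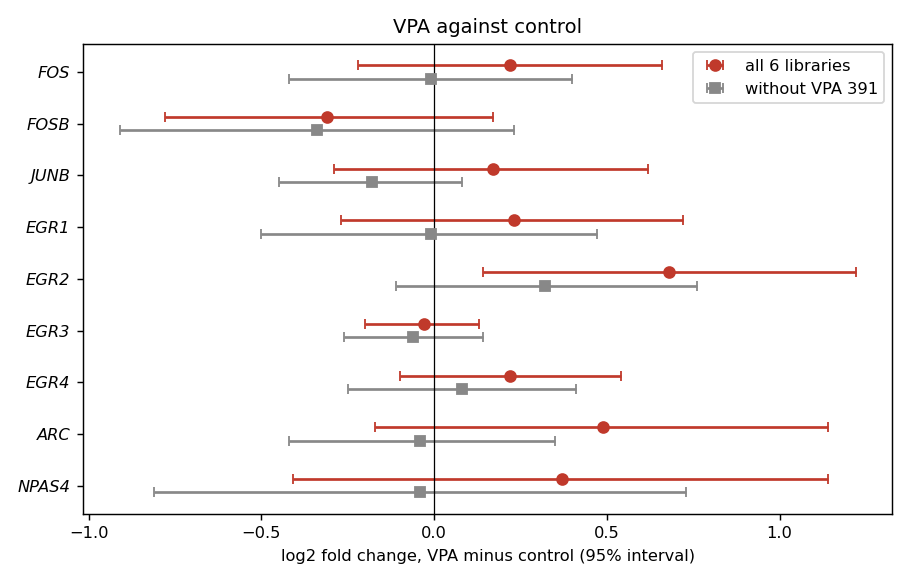
The horizontal axis gives the log2 fold change (VPA minus control) of each gene from edgeR with its 95% interval, from all 6 libraries (red circles) and without VPA 391 (grey squares). With all libraries only the interval of EGR2 lies above 0, from 0.14 to 1.22, and without VPA 391 all 9 intervals include 0.

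The intervals give the differences that these libraries were compatible with. For FOS the interval ran from -0.22 to 0.66, a factor of 0.861 to 1.58, and for EGR1 from -0.27 to 0.72. The upper bound was 2.21-fold for both ARC and NPAS4 and 2.33-fold for EGR2. For FOSB the interval ran from -0.78 to 0.17, a factor of 0.581 to 1.12. Differences inside these intervals were compatible with the values of 3 against 3 animals, and the missed thresholds do not show that the groups were alike.

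VPA 391 was the highest of the 6 libraries in 7 of 9 members, where it was the highest in 14.1% of all genes tested. The 7 were FOS, JUNB, EGR1, EGR2, EGR4, ARC and NPAS4, in which it stood between 0.35 (EGR4) and 1 (ARC) above the gene's mean on the log2 scale. The summed level of the 9 members was 348 CPM in VPA 391, 249 in VPA 393 and 207 in VPA 392, and 247, 246 and 201 CPM in controls 408, 402 and 401. At the other end, VPA 392 was the lowest library in JUNB, EGR4 and NPAS4, and control 401 in FOS, EGR1 and ARC. Control 402 was the lowest library in FOSB, EGR2 and EGR3. VPA 392 and control 401, which were low in the sum, are the libraries with 0 and 2 counts of EIF1AY. With EIF1AY as a covariate the median log2 fold change of the members was 0.21, and in the 4 libraries with 450 counts or more it was 0.32, with 0 members called by edgeR in both and 1 and 2 members at an unadjusted p under 0.05. Over all genes these fits called 75 and 0 genes and had 2358 and 1919 at an unadjusted p under 0.05. The part of sex in these levels was not tested beyond these values.

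**Figure D3:**
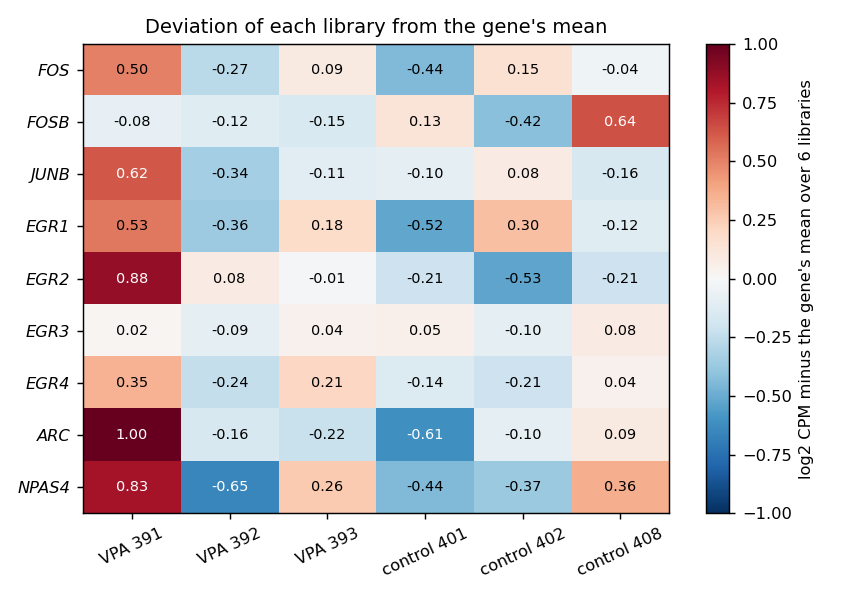
Colours and numbers give the log2 CPM of each gene (rows) in each library (columns) minus that gene's mean over the 6 libraries. The column of VPA 391 is positive in 8 of 9 rows, up to 1 for ARC, while the row of EGR3 stays between -0.10 and 0.08.

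Depth, cell type markers and stress genes of VPA 391 were set beside these levels, and their part in them was not tested. Its total of 16724776 counts lay within the range of the libraries. The summed level of 12 excitatory neuron markers was 6000 CPM in VPA 391, against 5824 to 6287 in the others, and that of 11 heat shock and chaperone genes was 6466 CPM, against 6072 to 7006. Oligodendrocyte and astrocyte markers of VPA 391 lay above all controls, at 18742 CPM over 10 genes (controls 12747 to 17183) and 9121 CPM over 8 genes (controls 7659 to 8356). They were higher still in VPA 392, at 18763 and 9638 CPM. For 10 endothelial markers the sum was 530 CPM in VPA 391, where the others had 532 to 625, and for 5 blood markers 130 CPM in a range of 27.9 to 212. Striatal projection neuron markers, high in VPA 393, stood at 262 CPM in VPA 391. VPA 393 was the highest library in 0 of the 9 members, and without it their median log2 fold change was 0.25.

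Of the 9 members, 8 varied more between animals of a group than the median gene tested. The pooled within-group SD of log2 CPM had a median of 0.372 over the 9 members and of 0.118 over all genes tested. It was 0.12 over the 8161 genes with a mean CPM between those of the lowest and the highest member, and 7 of the 9 members lay above the 90th percentile of these genes (0.247). NPAS4 (0.613) and ARC (0.547) stood at the 97.2 and 96.1 percentiles of all genes tested and EGR1 (0.427) at 92.5. FOS, JUNB, EGR2 and FOSB, at 0.347 to 0.374, were at the 88.5 to 90 percentiles. EGR4 (0.237) was at 79.0 and EGR3 (0.0827) at 30.9. The VPA animals had the larger SD in 7 of 9 members, as in 46.6% of all genes tested, and the exceptions were FOSB and EGR3. This difference in spread was not tested, and the 7 are the members in which VPA 391 was highest. For JUNB and EGR4 the SD was 0.5 and 0.308 in VPA but 0.128 and 0.133 in controls. In controls it was 0.406 for EGR1, 0.445 for NPAS4 and 0.527 for FOSB.

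**Figure D4:**
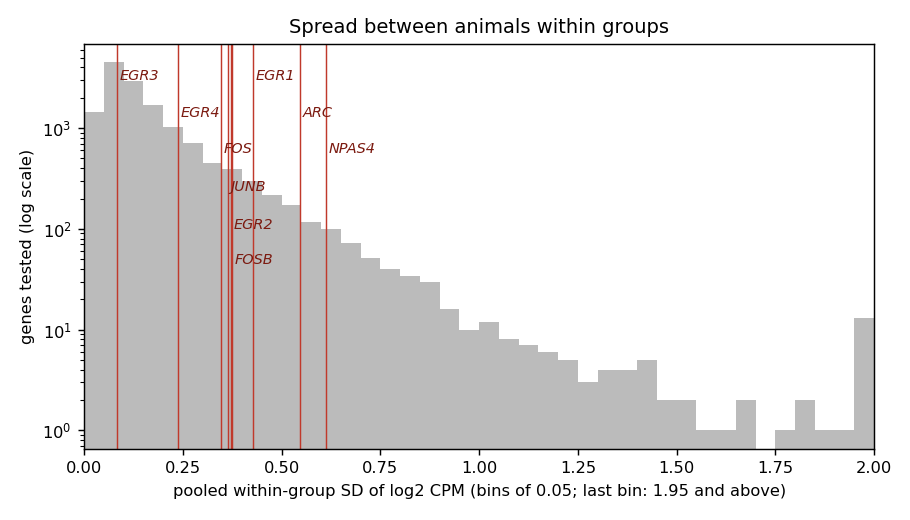
Grey bars count the genes tested (vertical axis, log scale) by their pooled within-group SD of log2 CPM, with the last bin holding all genes at 1.95 and above, and red lines mark the 9 members. All members but EGR3 lie to the right of the median of all genes (0.118).

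Per length of the gene model, EGR1, FOS, ARC and EGR3 were the most abundant members. Over the 6 libraries the deposited FPKM averaged 18 ± 4.96 for EGR1, 15.2 ± 3.59 for FOS and 15.2 ± 6.73 for ARC (SD, n = 6), followed by EGR3 with 11.5 ± 0.590. The ranges of these 4 overlapped, except that the lowest library of EGR1 (12.2) lay above the highest of EGR3 (12.1). Compared within a library, the FPKM of EGR1 was above that of FOS and of EGR3 in 6 of 6 libraries and above that of ARC in 5. FOS and ARC were each above EGR3 in 5 of 6 libraries, the exception being control 401, and FOS was above ARC in 3. EGR4 came next with 7.99 ± 1.38 FPKM, and its highest library (10.1) lay under the lowest of EGR3 (10.7). JUNB had 5.01 ± 1.31, FOSB 2.62 ± 0.722, NPAS4 1.81 ± 0.754 and EGR2 0.927 ± 0.364 FPKM. The range of each of these overlapped that of its neighbour in the order, but within a library EGR4 was above JUNB, JUNB above FOSB and NPAS4 above EGR2 in 6 of 6, and FOSB above NPAS4 in 5. The lengths behind the deposited FPKM were 1143 bases for FOS but 5350 for JUNB and 6876 for EGR2, so this order depends on the gene models that were used.

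The genes most like the members in their pattern were found by the root-mean-square difference between a gene's centred log2 CPM and the mean profile of the 9 members, over the 6 libraries and 10196 other genes with a mean of at least 10 CPM. NFKBIA, which encodes the NF-kB inhibitor IkB alpha and is itself rapidly induced, was the nearest (0.118). It had 28.3, 18.1 and 17.3 CPM in VPA 391, 392 and 393 and 14.7, 15.9 and 18.7 CPM in controls 401, 402 and 408. VPA 391 was highest and control 401 lowest, as in the mean profile by which the gene was chosen. The next were SMC6 (0.12), a gene of the SMC5/6 chromosome maintenance complex, SRBD1 (0.128), CSPP1 (0.134), which encodes a centrosome and cilium protein, and ARL9 (0.136), a gene of the ARF-like GTPase family. Among the members themselves FOSB had the most distant profile for 6 of the other 8 members.

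Among other rapid response genes VPA 391 was also often the highest library, while their log2 fold changes lay on both sides of 0. Of 40 such genes, 36 were tested, with 14 positive and 22 negative log2 fold changes and a median of -0.10. EdgeR called 0 of them, with 8 at an unadjusted p under 0.05, where 16.1% of all genes tested had such a p. DESeq2, which called 435 genes over all genes, called RGS2 and PLK2. Without VPA 393 the split turned to 20 positive and 16 negative, with a median of 0.02. VPA 391 was the highest library in 15 of the 36 (41.7%, against 14.1% of all genes tested) and control 402 in 12 (33.3%, against 15.5%). The median deviation of the list in VPA 391 was 0.11, where that of the members was 0.53. JUN, the AP-1 partner of FOS, had 48.8, 48.1 and 51.8 CPM in the VPA animals and 53.4, 65.9 and 55.5 CPM in the controls (log2 fold change -0.25 ± 0.086, adjusted p = 0.20; -0.15 without control 402). Its groups did not overlap, as in 21.2% of all genes tested, and control 402 was the highest. FOSL2, another FOS relative, stood at 0.05 ± 0.11 (-0.07 without VPA 391 and -0.03 without control 402).

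NR4A2 and NR4A3 encode orphan nuclear receptors of the same family as NR4A1. NR4A3 had 19.8 CPM in VPA 391 and 9.67 to 15.2 CPM in the other 5 libraries, with a log2 fold change of 0.01 ± 0.22 that was -0.35 without VPA 391, -0.07 without control 401 and -0.01 without control 402. NR4A2 had 54.9 CPM in VPA 391 and 44.8 to 52.1 CPM in the others (0.02 ± 0.096; -0.09, -0.02 and -0.01 without VPA 391, control 402 and control 408). As in the members, VPA 391 was highest in both. DUSP1, a phosphatase that ends MAP kinase signalling, had 99.5 CPM in control 402 and 37.2 to 54.8 CPM in the other libraries. Its log2 fold change was -0.56 ± 0.29 (adjusted p = 0.38), and -0.09 without control 402. The value was -0.84 without control 401, -0.74 without VPA 392 and -1.03 in the 4 libraries with EIF1AY. RGS2, whose product shortens G protein signals, stood at 42.2 ± 3.09 CPM in the VPA animals and 52.5 ± 1.78 CPM in the controls (adjusted p = 0.077). PLK2, an activity-induced kinase that acts at synapses, reached 129 ± 12 and 154 ± 6.99 CPM (adjusted p = 0.097), and BTG1, an antiproliferative gene, 47.2 ± 1.51 and 38.9 ± 2.31 CPM (adjusted p = 0.12).

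Late-response and activity-dependent effector genes lay mostly on the negative side. Of 29 tested genes 21 had negative and 8 positive log2 fold changes, with a median of -0.17 beside 0.00 over all genes. EdgeR called 0 of them, with 11 at an unadjusted p under 0.05, of which 10 were negative, where 7.45% of all genes tested had such a p with a negative log2 fold change. DESeq2 called 5 (NRN1, RGS4, ADCYAP1, NPTX1 and SYT4) and limma-voom RGS4, where they called 435 and 30 genes over all genes. EdgeR itself called RGS4 (adjusted p = 0.033) and NRN1 (0.038) without the low-count filter, and RGS4 (0.049) with EIF1AY as a covariate. Without VPA 391 the count was 23 of 29 negative, with a median of -0.18. RGS4, which limits signalling by G protein-coupled receptors in cortical neurons, had 826, 784 and 819 CPM in VPA 391, 392 and 393 and 976, 967 and 933 CPM in controls 401, 402 and 408. The groups were well apart, and VPA 391 lay with the other VPA animals (log2 fold change -0.26 ± 0.047, edgeR adjusted p = 0.054, and 7.2e-05 to 0.17 over 18 alternatives). NRN1, the neurite growth gene neuritin, had 149 ± 2.80 CPM in the VPA animals and 175 ± 2.66 CPM in the controls (-0.24 ± 0.045, adjusted p = 0.054). ADCYAP1, the gene of the neuropeptide PACAP, had 25.6 ± 0.675 and 35.3 ± 5.48 CPM (-0.48 ± 0.11, adjusted p = 0.077). BDNF, the neurotrophin gene that NPAS4 and CREB regulate, stood at -0.22 ± 0.13 and NPTX2, a secreted organiser of AMPA receptors, at -0.13 ± 0.12 (adjusted p = 0.44 and 0.64). With a library left out BDNF ran from -0.32 (without VPA 391) to -0.12 (without VPA 393). NPTX2 went to -0.03 (without VPA 393 or control 408), -0.22 (without control 402) and -0.25 (without VPA 392).

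The summed level of the late-response genes was 3013 to 3218 CPM in the VPA animals and 3376 to 3699 CPM in the controls, without overlap. RGS4 alone made up 784 to 826 CPM of the sum in VPA and 933 to 976 CPM in controls. Taken singly, 8 of the 29 genes were lower and 1 higher in VPA without overlap, where 21.2% of all genes tested did not overlap in either direction. Markers of excitatory neurons lay in the same direction. Their sum was 5824 to 6013 CPM in VPA and 6133 to 6287 CPM in controls, with 9 of 12 negative log2 fold changes. Markers of inhibitory neurons lay the other way, with 9 of 12 positive. They summed to 1583 to 1625 CPM in VPA and 1461 to 1465 CPM in controls. Oligodendrocyte markers also lay the other way, with 10 of 10 positive. These summed to 16615 to 18763 CPM in VPA and 12747 to 17183 CPM in controls. The part of cell composition in the late-response values was not tested. PENK and TAC1 are in both the late-response and the striatal list, and PENK was the positive gene among the 11.

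**Figure D5:**
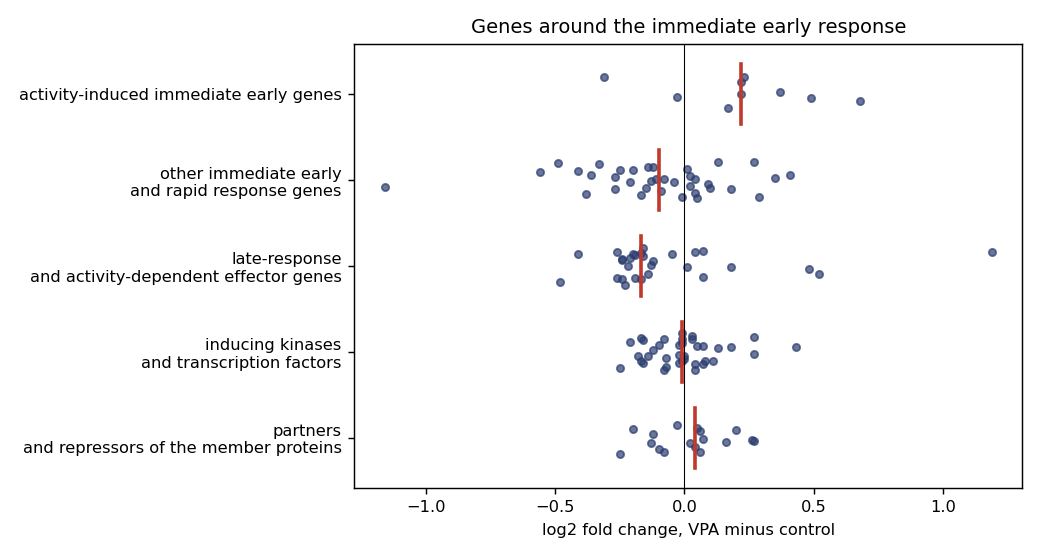
Each point is the log2 fold change (VPA minus control) of 1 gene and each red line the median of its list, for the 9 members and the 4 related lists, with vertical jitter inside a list. The medians run from -0.17 for the late-response genes to 0.22 for the members, and no gene shown passed edgeR's adjusted p of 0.05.

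The list of kinases and transcription factors upstream of immediate early genes was centred on 0. It also holds coactivators, the phosphatase genes PPP3CA and PPP3CB and the deacetylase genes HDAC4 and HDAC5. Of 37 tested, 16 had positive and 21 negative log2 fold changes, with a median of -0.01. EdgeR called 0, with 9 at an unadjusted p under 0.05, where 16.1% of all genes tested had such a p. DESeq2 called MEF2C and MAP2K1 among its 435 genes over all genes. CREB1 stood at 37.7 ± 1.27 CPM in the VPA animals and 34.0 ± 4.10 CPM in the controls (0.13 ± 0.094, adjusted p = 0.52; 0.05 without control 401 and 0.23 without control 408). SRF had 50.5 ± 4.17 and 48.3 ± 2.95 CPM (0.05 ± 0.084, adjusted p = 0.82; -0.01 without VPA 392 and without control 401). MEF2C, which restrains synapse number in an activity-dependent way, had 665 ± 58.5 and 785 ± 31.6 CPM (-0.25 ± 0.065, adjusted p = 0.10). MAP2K1, the kinase gene upstream of ERK, had 403 ± 12.5 and 452 ± 12.3 CPM (-0.18 ± 0.048, adjusted p = 0.11). CRTC3, a coactivator of CREB, had 42.5 ± 2 and 35 ± 1.99 CPM (0.27 ± 0.078, adjusted p = 0.13).

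Partners and repressors of the member proteins had a median of 0.04, with 10 of 17 positive. EdgeR called 0, with 4 at an unadjusted p under 0.05, where 16.1% of all genes tested had such a p. DESeq2 called DNM2 among its 435 genes over all genes. DNM2, which encodes the endocytic dynamin that ARC binds, had 84.7 ± 2.06 CPM in the VPA animals and 70 ± 3.88 CPM in the controls (0.26 ± 0.060, adjusted p = 0.078). RXRA, a partner of NR4A receptors, had 24.6 ± 1.46 and 20.2 ± 1.54 CPM (0.27 ± 0.093, adjusted p = 0.18). NAB2, the corepressor that EGR proteins induce and are bound by, had 37.7, 27.9 and 26.6 CPM in VPA 391, 392 and 393 and 30.2, 36.3 and 32.9 CPM in controls 401, 402 and 408. It was highest in VPA 391 and next in control 402, the same order of these 2 libraries as in EGR1 (log2 fold change -0.12 ± 0.13, adjusted p = 0.71). The log2 fold change of NAB2 was -0.31 without VPA 391 and -0.19 without control 401, and it was -0.02 without VPA 393 and -0.05 without VPA 392 or control 402.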

How the data were processed

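Each library came with a table of unnormalised counts and a table of FPKM, both deposited by the authors and named so in the files. Dividing counts by the file total and a whole-number gene length gave all 97071 nonzero FPKM values (relative tolerance 0.001). Per the labels' protocols, total RNA came from a TRIzol extraction and the libraries from a VAHTS Universal V6 kit. The aligner, counter, strandedness, build and batches are not stated by the labels or headers, so reads of overlapping or antisense genes cannot be told apart. Counts were tested in R 4.3.3 with edgeR 4.0.16 (filterByExpr defaults, 14373 genes kept, TMM, glmQLFit and glmQLFTest, no covariate, Benjamini-Hochberg over all genes tested). Standard errors and 95% intervals came from the F statistic. CPM used file totals; log2 CPM used a prior count of 2. The 24 gene names turned into dates stayed in the totals. The chi-square per degree of freedom between libraries was 5.74 to 12.8 over 15 pairs, so none were duplicates. The functions were tested on simulated data. DESeq2 1.42.0, limma 3.58.1 (trend on log2(FPKM + 1), and voom), other scalings and filters, EIF1AY as a covariate and each library left out were alternatives; the 4 libraries with EIF1AY counts were added after seeing the data. Named genes are all members, 10 fixed related genes, from each related list the called genes or else the 3 with the lowest p, and the 5 most similar profiles. Further genes are named where a tool called them or they describe a library, after their values were seen. Members and lists were chosen with earlier results of these data known. Some genes are in more than 1 list. Symbols were matched directly or through synonyms of the RefSeq table (Sscrofa11.1). Sequences were not used here.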

Additional observations from a re-analysis of the deposited data

How the results depend on the processing

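Under all 18 alternatives 0 of the 9 members were called. The median log2 fold change of the members was 0.20 to 0.32 under the alternatives that kept all libraries or the 4 with EIF1AY, and -0.04 to 0.39 with a library left out. VPA 391 stayed the highest library in 7 members with TMM or RLE scaling of the CPM, chosen after seeing the data. The members' median within-group SD was 0.376 with a prior count of 0.5 and 0.309 on log2(FPKM + 1). The count over all genes, 52, was 141 without a low-count filter, 435 with DESeq2, 30 with limma-voom, 2 with limma-trend on log2(FPKM + 1) or log2(FPKM + 0.1), 1 on log2(FPKM + 1) without a filter, 0 in the 4 libraries with EIF1AY and 0 to 66 with a library left out; in the fits on fewer libraries edgeR had 1719 to 2494 genes at an unadjusted p under 0.05. The cause of these shifts was not tested. Log2 fold changes that changed sign with a library left out ran from -0.01 to 0.39 for FOS, -0.18 to 0.35 for JUNB, -0.01 to 0.45 for EGR1, -0.09 to 0 for EGR3, -0.04 to 0.70 for ARC and -0.04 to 0.68 for NPAS4; outside the members, they ran from -0.07 to 0.16 for FOSL2, -0.09 to 0.08 for NR4A2, -0.35 to 0.22 for NR4A3 and -0.01 to 0.11 for SRF. In the 4 libraries with EIF1AY EGR3 was at 0.02 and SRF at -0.07. NR4A3 was at -0.06 with limma-voom, -0.02 with limma-trend on log2(FPKM + 1), with or without the filter, and -0.04 on log2(FPKM + 0.1). No paired analysis was possible because the animal numbers are not shared between the groups. NPAS4 (46 to 135 reads) and EGR2 (70 to 188 reads) had the fewest reads among the members. For NPAS4 counting error alone gives a variation of 11.5% in VPA and 12.1% in controls, against 48.3% and 33.8% measured. For EGR2 it gives 8.98% in VPA and 10.9% in controls, against 37.1% and 12.8% measured.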
